A study of Mus musculus with 6 samples.

Results

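The mitochondrial solute carriers of the Slc25a family were examined in the levator ani/bulbocavernosus muscle of knock-in mice that model spinal and bulbar muscular atrophy (SBMA). The members are the rows of the gene table whose symbol is Slc25a followed by a number, which gave 44 genes of 27131, each present in 1 row; Mcart1 and Mcart6, older symbols of Slc25a51 and Slc25a53, fall outside this rule. After the filter on low counts, 40 of the 44 were tested among 16960 genes. Bulk messenger RNA was sequenced from 3 mice with the genotype label WT and 3 mice with the genotype label 113Q, all 14 weeks old and fed standard chow, and each library came from 1 mouse. The name 113Q refers to an expanded glutamine tract in the androgen receptor, the defect that causes SBMA; the labels give no strain, litter, treatment with an agent or further allele for either group. The levator ani/bulbocavernosus is an androgen-sensitive striated muscle of the male pelvic floor.

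Carriers of this family sit in the inner mitochondrial membrane, with a few in the outer membrane or in peroxisomes, and move small molecules between the cytosol and the matrix. Each is built from repeated pairs of membrane helices and most exchange one substrate for another. In muscle the family is best known for the exchange of ADP for ATP, the import of phosphate for ATP synthesis, the malate-aspartate shuttle that carries reducing power from glycolysis, and the entry of acylcarnitines for fatty acid oxidation.

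The libraries held between 43581087 and 73873481 estimated counts. Levels are given as CPM, the usual depth-scaled count, with TMM factors, which set the bulk of genes equal between libraries. These factors were 0.768 to 0.794 in WT and 1.26 to 1.32 in 113Q, so they follow the genotype, and "rose" and "fell" below mean relative to the other genes of the muscle. With library totals alone, the median over all genes moved by 0.72 on the log2 scale. The 6 myofibre markers (Acta1, Ckm, Ttn, Neb, Myh4 and Myh1) were abundant in every library, with a summed level of 121923 to 145669 CPM in WT and 27788 to 35966 CPM in 113Q, and all 6 fell with TMM factors. Their log2 fold changes ran from -4.55 to -0.82, the smallest of them near the size of that 0.72. In whole muscle, fewer cells of a type and less RNA per cell cannot be told apart.

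**Figure D1:**
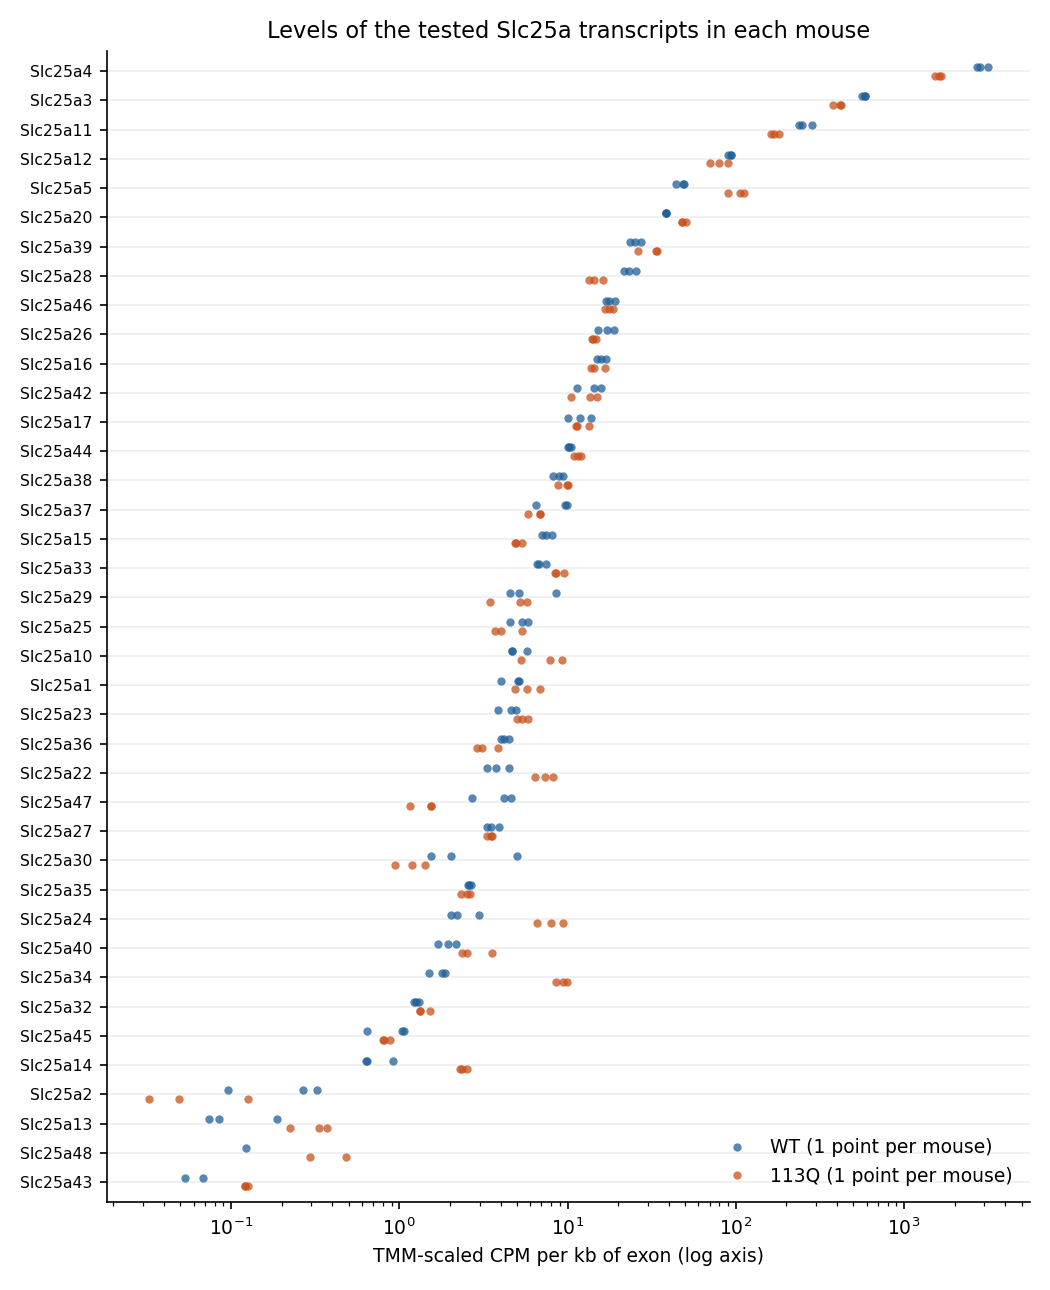
Levels of the tested Slc25a transcripts named in the text, as TMM-scaled CPM per kb of exon on a log axis; each point is 1 mouse, blue for WT and orange for 113Q, and genes are ordered by their WT mean. Slc25a4 lies at the top in both groups, and values of 0 (Slc25a43 in WT mouse 3, Slc25a48 in WT mice 1 and 3 and 113Q mouse 1) cannot be drawn.

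Transcripts of the family were dominated by a few carriers. Divided by exon length, Slc25a4, the ADP/ATP translocase of heart and skeletal muscle, stood at 2893 ± 229.7 CPM per kb in WT and 1605 ± 60.6 in 113Q (mean ± SD, n = 3 in each group). Next came Slc25a3, the phosphate carrier, at 578 ± 14.7 CPM per kb in WT and 404 ± 24.2 in 113Q, and Slc25a11, the oxoglutarate/malate carrier, at 256 ± 23.0 CPM per kb in WT and 171 ± 9.39 in 113Q. The ranges of these 3 genes did not overlap each other within either group. Slc25a12, the aspartate/glutamate carrier of muscle and brain, followed in WT, at 92.6 ± 1.94 CPM per kb in WT and 79.7 ± 9.84 in 113Q. Slc25a5, the ADP/ATP translocase of most other tissues, came after it in WT and before it in 113Q, at 47.2 ± 3.00 CPM per kb in WT and 103 ± 11.2 in 113Q. In 113Q the highest Slc25a12 value, 89.6 CPM per kb, lay just under the lowest Slc25a5 value, 90.0 CPM per kb, both in 113Q mouse 2, a gap smaller than the spread of either gene.

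As a share of all Slc25a transcripts per exon length, which does not depend on the scaling between libraries, Slc25a4 made up 70.9, 69.8 and 68.6% in WT and 59.9, 61.8 and 59.6% in 113Q. Its share was lower in all 3 113Q mice than in any WT mouse. Slc25a4, Slc25a3, Slc25a12 and Slc25a11 together held 92.5, 92.1 and 91.9% in WT and 85.0, 85.6 and 84.7% in 113Q. The groups did not overlap in this share either, and the other 40 members took the remainder. The lower joint share in 113Q came from Slc25a4 alone. Slc25a12 held at most 2.32% in WT and at least 2.72% in 113Q, and the shares of Slc25a3 and Slc25a11 overlapped between the groups.

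The summed level of the 44 members was 9177, 8431 and 8183 CPM in the WT mice against 5411, 5721 and 5753 CPM in the 113Q mice. As a percentage of unscaled estimated counts, the same sum came to 0.711, 0.648 and 0.650% against 0.714, 0.726 and 0.726%, so the order of the groups turns with the scaling. Without the 4 most abundant carriers named above, the sum was 836, 805 and 799.6 CPM against 884, 901 and 948 CPM, and 0.0648, 0.0618 and 0.0635% against 0.117, 0.114 and 0.120% of unscaled counts. This remainder was higher in every 113Q library on both scales. Its mean CPM differed by 97.8, and Slc25a5, 1 of its members, had means of 58.6 CPM in WT and 127 CPM in 113Q. Much of the difference thus lies in that gene. The unscaled percentages also hold the upward move of most genes, a median of 0.72 on the log2 scale. Each of these sums gave an exact permutation p of 0.1 (two-sided), the smallest that 3 against 3 libraries allows, so none can pass 0.05.

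Of the 40 tested members, 8 rose and 8 fell in 113Q at an adjusted p below 0.05, and 24 did not pass. That is 40.0% of the members, and over all tested genes 34.6% passed in either direction, 16.5% higher and 18.1% lower, so the share is near the background. The median log2 fold change was -0.03 for the members and 0.01 for all genes. Groups did not overlap for 24 members (60.0%), against 49.9% of all genes. Changes reached 2 times in 5 risers and 1 faller, where 5.33% of all genes rose and 5.22% fell by that much. Those that rose were Slc25a34, Slc25a24, Slc25a14, Slc25a13, Slc25a5, Slc25a22, Slc25a20 and Slc25a33. Those that fell included Slc25a47, Slc25a4, Slc25a28, Slc25a11, Slc25a15, Slc25a3 and Slc25a36.

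Library totals alone move log2 fold changes up by about 0.72, so this scaling could turn falls but not rises. With library totals alone, 28 members were higher and 1 was lower, beside 11015 and 710 of all genes. All 8 risers remained called as higher with that scaling, which for that reason does not test them. Of the fallers, Slc25a47 remained called as lower, and Slc25a4 had a log2 fold change of -0.13 (edgeR adjusted p = 0.212). Slc25a28, Slc25a11, Slc25a15 and Slc25a3 were above zero, from 0.04 for Slc25a28 to 0.20 for Slc25a3, and did not pass. Slc25a36, at 0.36, was called as higher.

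**Figure D2:**
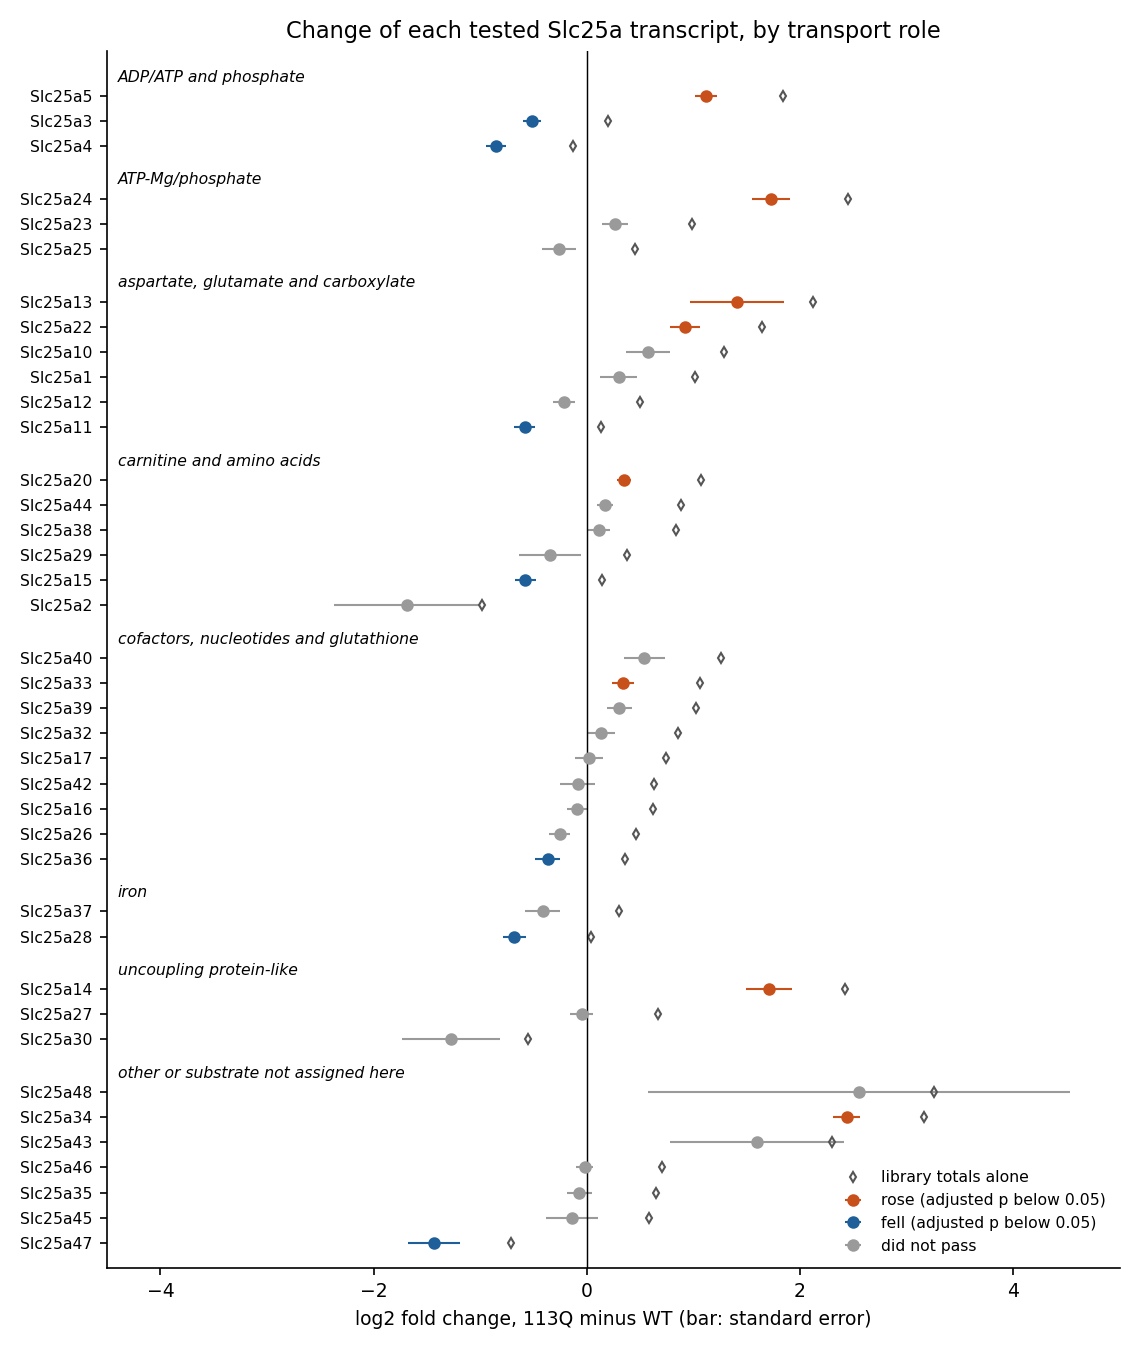
Log2 fold change (113Q minus WT) of each tested member named in the text, with its standard error, grouped by transport role; orange members rose, blue members fell and grey members did not pass, and open diamonds give the value with library totals alone. The diamonds lie about 0.72 to the right of the filled points, and only Slc25a2, Slc25a4, Slc25a30 and Slc25a47 keep a diamond below zero.

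The carriers of ADP, ATP and phosphate, which supply substrate to the ATP synthase and export its product, all passed the test, in opposite directions. Slc25a4 was at 6059.6, 5451 and 5199.6 CPM in the WT mice against 2960.2, 3186 and 3125 CPM in the 113Q mice. Every 113Q library lay below every WT library, and the gene was 1.80 times lower (log2 fold change -0.85 ± 0.09, edgeR adjusted p = 3.34e-04). Before scaling, its estimated counts were 204652, 288828 and 270117 in the WT mice against 265162, 284990 and 291413 in the 113Q mice, which overlap. Slc25a5 was at 54.4, 60.0 and 61.4 CPM in the WT mice against 132, 112 and 138 CPM in the 113Q mice. Here every 113Q library lay above every WT library, 2.17 times higher (log2 fold change 1.12 ± 0.10, edgeR adjusted p = 1.27e-04). Slc25a3, which imports phosphate with a proton and whose muscle and general splice forms are not separated in the table, was at 1139, 1092 and 1145 CPM in the WT mice against 805, 733 and 821 CPM in the 113Q mice. It was 1.43 times lower with no overlap (log2 fold change -0.52 ± 0.08, edgeR adjusted p = 0.00223). Slc25a31, the ADP/ATP translocase of the testis, had estimated counts of 2, 0 and 0 in the WT mice against 6, 2 and 2 in the 113Q mice and was not tested.

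Of the ATP-Mg/phosphate carriers, which adjust the adenine nucleotide content of the matrix, 1 of 3 tested members rose. Slc25a24 was at 6.96, 7.59 and 10.2 CPM in the WT mice against 32.0, 22.7 and 27.3 CPM in the 113Q mice. Every 113Q library lay above every WT library, and the gene was 3.31 times higher (log2 fold change 1.73 ± 0.18, edgeR adjusted p = 2.95e-04). Slc25a23 was at 16.1, 17.4 and 13.5 CPM in the WT mice against 17.4, 18.7 and 20.4 CPM in the 113Q mice. Its groups just failed to overlap and it did not pass (log2 fold change 0.27 ± 0.12, edgeR adjusted p = 0.124). Slc25a25 was at 23.2, 19.5 and 25.0 CPM in the WT mice against 16.0, 17.3 and 23.2 CPM in the 113Q mice. The values of WT and 113Q overlapped (log2 fold change -0.26 ± 0.16, edgeR adjusted p = 0.239). Slc25a41, another gene of this kind, had estimated counts of 1, 0 and 0 in the WT mice against 0, 2 and 2 in the 113Q mice and was not tested.

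Among the 6 tested carriers of aspartate, glutamate and carboxylates, 2 rose and 1 fell. Slc25a11, which exchanges oxoglutarate for malate in the malate-aspartate shuttle, was at 551, 486 and 465 CPM in the WT mice against 317, 331 and 353 CPM in the 113Q mice. It was 1.50 times lower and the groups did not overlap (log2 fold change -0.58 ± 0.09, edgeR adjusted p = 0.00207). Slc25a12, the calcium-sensitive aspartate/glutamate exchanger of the same shuttle, was at 592, 598 and 574 CPM in the WT mice against 444, 569 and 506 CPM in the 113Q mice. Its 113Q values lay below its WT values by a margin that did not pass (log2 fold change -0.22 ± 0.10, edgeR adjusted p = 0.143). Slc25a13, the form of that exchanger known from liver, was near the limit of detection, at 0.266, 0.585 and 0.231 CPM in the WT mice against 0.703, 1.16 and 1.04 CPM in the 113Q mice. It was higher in each 113Q library (log2 fold change 1.41 ± 0.44, edgeR adjusted p = 0.0377), from estimated counts of 9, 31 and 12 in the WT mice against 63, 104 and 97 in the 113Q mice. The call was lost without WT mouse 1 (adjusted p = 0.106), WT mouse 3 (0.111), 113Q mouse 2 (0.124) or 113Q mouse 3 (0.104). Slc25a22, a glutamate carrier, was at 14.2, 10.5 and 11.9 CPM in the WT mice against 23.2, 20.2 and 25.8 CPM in the 113Q mice. It was 1.90 times higher without overlap (log2 fold change 0.92 ± 0.14, edgeR adjusted p = 0.00168). The other glutamate carrier, Slc25a18, had estimated counts of 16, 6 and 9 in the WT mice against 4, 14 and 7 in the 113Q mice and was not tested. The citrate carrier Slc25a1 and the dicarboxylate carrier Slc25a10 did not pass in edgeR, at log2 fold changes of 0.30 and 0.57. Slc25a10 passed without 113Q mouse 1 (adjusted p = 0.00911), in DESeq2 (0.0252) and with upper-quartile factors (0.0448). Slc25a21, which carries oxoadipate, was not tested, with estimated counts of 0, 0 and 1 in the WT mice against 11, 2 and 2 in the 113Q mice.

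Of 6 carriers of carnitine and amino acids, 1 rose and 1 fell. Slc25a20, which brings acylcarnitines into the matrix in exchange for carnitine, was at 68.5, 68.5 and 68.2 CPM in the WT mice against 85.1, 85.9 and 90.5 CPM in the 113Q mice. The WT values differed from each other by less than 1 CPM and each 113Q value was above them (log2 fold change 0.35 ± 0.07, edgeR adjusted p = 0.00545). Slc25a15, the ornithine carrier, was at 25.6, 27.9 and 24.1 CPM in the WT mice against 18.4, 16.7 and 17.0 CPM in the 113Q mice. It was 1.49 times lower with no overlap (log2 fold change -0.58 ± 0.10, edgeR adjusted p = 0.00246). The glycine carrier Slc25a38, the branched-chain amino acid carrier Slc25a44, the basic amino acid carrier Slc25a29 and Slc25a2, a close relative of the ornithine carrier, did not pass in edgeR, at log2 fold changes of 0.11, 0.17, -0.35 and -1.69. Slc25a29 was at 10.2, 17.0 and 8.99 CPM in the WT mice against 6.80, 10.3 and 11.3 CPM in the 113Q mice, with WT mouse 2 above all others. Without that mouse its log2 fold change was -0.01 (adjusted p = 0.969), and with a term for libraries with epithelial transcripts, of which WT mouse 2 is one, it passed (-0.57, adjusted p = 0.00971). Slc25a2 rests on estimated counts of 15, 7 and 19 in the WT mice against 4, 6 and 16 in the 113Q mice.

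Most of the 10 carriers of cofactors, nucleotides and glutathione did not pass: 1 rose, 2 fell and 7 gave no call. Slc25a33, a pyrimidine nucleotide carrier, was at 14.0, 12.5 and 12.8 CPM in the WT mice against 16.1, 15.8 and 17.9 CPM in the 113Q mice (log2 fold change 0.34 ± 0.10, edgeR adjusted p = 0.0344). Slc25a36, the other pyrimidine nucleotide carrier, was at 34.6, 36.7 and 33.0 CPM in the WT mice against 31.5, 25.6 and 23.7 CPM in the 113Q mice (log2 fold change -0.37 ± 0.12, edgeR adjusted p = 0.0394). These 2 genes moved apart without overlap between the groups, and both calls are near the threshold. Slc25a33 lost its call without WT mouse 2 (adjusted p = 0.0859), WT mouse 3 (0.0907) or any 113Q mouse (0.0502, 0.0648 and 0.126). Slc25a36 lost it without any WT mouse (0.0845, 0.0988 and 0.0644), 113Q mouse 2 (0.129) or 113Q mouse 3 (0.132). The glutathione carriers Slc25a39 and Slc25a40 did not pass in edgeR, at log2 fold changes of 0.31 and 0.54. Slc25a39 passed without 113Q mouse 1 (adjusted p = 0.015) and with upper-quartile factors (0.0415). Slc25a40 passed in DESeq2 (adjusted p = 0.0366), with upper-quartile factors (0.0499) and with a term for libraries with epithelial transcripts (0.0362). Of the rest, the coenzyme A carriers Slc25a16 and Slc25a42, the peroxisomal carrier Slc25a17, the S-adenosylmethionine carrier Slc25a26 and the folate carrier Slc25a32 lay between -0.26 and 0.14 on the log2 scale. Slc25a26 passed without WT mouse 2 (adjusted p = 0.0276).

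Both mitoferrins, which import iron for heme and iron-sulfur cluster synthesis, were measured. Slc25a28, the form of most tissues, was at 39.4, 35.8 and 33.1 CPM in the WT mice against 20.6, 22.0 and 25.0 CPM in the 113Q mice. It was 1.60 times lower with no overlap (log2 fold change -0.68 ± 0.11, edgeR adjusted p = 0.00178). Slc25a37, the form best known from red cell precursors, was at 42.1, 27.6 and 41.5 CPM in the WT mice against 24.8, 29.2 and 29.3 CPM in the 113Q mice. Its values overlapped and it did not pass (log2 fold change -0.41 ± 0.17, edgeR adjusted p = 0.0895), but it did without WT mouse 2 (adjusted p = 0.00485) and in DESeq2 (0.0469). The erythroid markers summed to 26.7 to 45.6 CPM in WT and 21.3 to 44.5 CPM in 113Q; their part in these values was not tested.

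Carriers related to the uncoupling proteins differed among themselves. Slc25a14, first described in brain, was at 1.15, 1.17 and 1.67 CPM in the WT mice against 4.30, 4.19 and 4.61 CPM in the 113Q mice. All 113Q values were above all WT values, 3.26 times higher (log2 fold change 1.71 ± 0.22, edgeR adjusted p = 6.55e-04). Slc25a30, described in kidney, was at 5.57, 17.9 and 7.31 CPM in the WT mice against 3.37, 5.08 and 4.29 CPM in the 113Q mice. WT mouse 2 stood above the other WT mice, the groups did not overlap, and the difference did not pass in edgeR but did in DESeq2 (adjusted p = 0.00248; edgeR: log2 fold change -1.28 ± 0.46, edgeR adjusted p = 0.0766). Without that mouse the log2 fold change was -0.60 (adjusted p = 0.0827), and without WT mouse 1 it was -1.57 and passed (adjusted p = 0.0348). WT mouse 2 also carried epithelial transcripts, with the 6 epithelial markers at 40.4 CPM against 1.30 and 1.48 CPM in WT mice 1 and 3. With a term for libraries with such transcripts, Slc25a30 fell (log2 fold change -1.45, adjusted p = 0.00396). Slc25a27 did not pass (log2 fold change -0.05 ± 0.11, edgeR adjusted p = 0.756).

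The largest rise and the largest fall among called members were in carriers for which no substrate is assigned here. Slc25a34 was at 4.97, 4.04 and 4.79 CPM in the WT mice against 26.6, 22.9 and 25.2 CPM in the 113Q mice. Its levels were tight in both groups and 5.42 times higher in 113Q (log2 fold change 2.44 ± 0.12, edgeR adjusted p = 1.13e-05). Slc25a35, its closest relative, was at 9.86, 9.55 and 9.47 CPM in the WT mice against 8.51, 9.33 and 9.67 CPM in the 113Q mice. The groups overlapped and the gene did not pass (log2 fold change -0.07 ± 0.12, edgeR adjusted p = 0.681). Slc25a47, a carrier known mainly from liver, was at 7.96, 8.76 and 5.12 CPM in the WT mice against 2.19, 2.95 and 2.94 CPM in the 113Q mice. Its fall of 2.70 times was without overlap (log2 fold change -1.43 ± 0.24, edgeR adjusted p = 0.00251). Slc25a46, an outer membrane protein linked to mitochondrial shape, and Slc25a45 had log2 fold changes of -0.02 and -0.14. Slc25a43 was near the floor, with estimated counts of 2, 4 and 0 in the WT mice against 12, 12 and 13 in the 113Q mice, and did not pass (log2 fold change 1.60). Slc25a48 had estimated counts of 0, 22 and 0 in the WT mice against 0, 89 and 151 in the 113Q mice, above zero in the same 3 libraries that had Epcam, the epithelial adhesion molecule, of at least 1 CPM: 3.83 CPM in WT mouse 2 and 8.29 and 10.2 CPM in 113Q mice 2 and 3. The part of epithelial cells in the Slc25a48 values was not tested.

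The sequences before the start sites of Slc25a34 and Slc25a5 are shown because these genes rose while their close relatives, Slc25a35 and Slc25a4, did not. Each holds the 250 bases before the start of transcription in RefSeq (GRCm38.p6), written 5′ to 3′ along the gene: Slc25a34 from chr4:141623835-141624084 on the minus strand and Slc25a5 from chrX:36795347-36795596 on the plus strand. Capitals mark AAGGTCA or its reverse complement TGACCTT, a short sequence bound by estrogen-related receptors.
Slc25a34: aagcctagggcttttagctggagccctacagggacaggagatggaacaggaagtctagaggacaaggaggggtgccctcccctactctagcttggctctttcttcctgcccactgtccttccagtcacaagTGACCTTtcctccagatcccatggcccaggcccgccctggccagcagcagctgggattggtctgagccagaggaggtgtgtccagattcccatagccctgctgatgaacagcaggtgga
Slc25a5: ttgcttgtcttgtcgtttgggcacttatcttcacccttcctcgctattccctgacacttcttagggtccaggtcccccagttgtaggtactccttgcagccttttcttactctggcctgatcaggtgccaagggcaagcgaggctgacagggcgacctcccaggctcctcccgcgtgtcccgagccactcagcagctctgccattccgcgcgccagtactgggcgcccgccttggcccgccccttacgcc
The Slc25a34 stretch holds 1 CpG and the Slc25a5 stretch 14, with CpG observed over expected of 0.0469 and 0.617. The median was 0.378 over all genes and 0.608 over the 34 members with a promoter window, near the value of Slc25a5. Promoter windows of 300 bases, from 250 before to 50 after the start, were matched for 34 of the 44 members. AAGGTCA on either strand was found in 1 of 34 members, which was Slc25a34, and in 5.38% of 27025 genes. The palindrome bound by nuclear respiratory factor 1, with any base allowed at 1 inner position, was found on either strand in 2 of 34 members, Slc25a3 and Slc25a31, and in 5.19% of genes; its stricter form, which the looser form contains, was in 0 of 34 members and 1.07% of genes. CCGGAAG on either strand, a core of the sites of ETS factors such as GABPA, was in 6 of 34 members, including Slc25a3, Slc25a4 and Slc25a20, and in 9.93% of genes. A match describes letters in this window only.

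Ratios of related carriers within a library do not depend on the scaling between libraries. Of 10 pairs, 8 did not overlap between the groups. Each of these had an exact permutation p of 0.1 (two-sided, adjusted p = 0.125 over the 10 pairs). An exact p of 0.1 is the smallest 3 against 3 allows, so no pair can pass 0.05. The share over other gene pairs was not computed, and 49.9% of single genes did not overlap. The pairs were also chosen with earlier results known, so the count is not read as a result about the carriers. The ratio of Slc25a4 to Slc25a5 counts was 111, 90.8 and 84.7 in the WT mice against 22.5, 28.6 and 22.6 in the 113Q mice. These are ratios of counts, not divided by length, so only their change between groups is read. The ratio was lower in each 113Q mouse, and the mean log2 ratio differed by -1.96. Slc25a25 to Slc25a24 was 3.34, 2.57 and 2.45 in the WT mice against 0.498, 0.763 and 0.849 in the 113Q mice. The mean log2 ratio differed by -2.01. Per exon length, Slc25a24 was at 2.40 ± 0.498 CPM per kb in WT and 7.97 ± 1.36 in 113Q (mean ± SD, n = 3) and Slc25a25 at 5.23 ± 0.645 CPM per kb in WT and 4.36 ± 0.888 in 113Q. Slc25a23 to Slc25a24 was 2.31, 2.29 and 1.33 in the WT mice against 0.543, 0.826 and 0.748 in the 113Q mice, lower in each 113Q mouse, and it shares Slc25a24 with the pair before. Slc25a34 to Slc25a35 was 0.505, 0.423 and 0.506 in the WT mice against 3.13, 2.45 and 2.61 in the 113Q mice. The ratio rose in each 113Q mouse above every WT mouse, a mean log2 difference of 2.51. Per exon length, Slc25a34 was at 1.72 ± 0.186 CPM per kb in WT and 9.33 ± 0.704 in 113Q and Slc25a35 at 2.62 ± 0.0560 CPM per kb in WT and 2.49 ± 0.163 in 113Q.

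Slc25a30 to Slc25a14 was 4.82, 15.3 and 4.37 in the WT mice against 0.784, 1.21 and 0.930 in the 113Q mice, with WT mouse 2 far above the other WT mice, and without it the mean log2 ratio differed by -2.25 in place of -2.83. Slc25a33 to Slc25a36 was 0.405, 0.340 and 0.388 in the WT mice against 0.511, 0.618 and 0.754 in the 113Q mice, a mean log2 difference of 0.72. The pairs Slc25a12/Slc25a13 and Slc25a22/Slc25a18 also did not overlap, at -1.70 and 2.28, but Slc25a13 and Slc25a18 are close to the floor. The mitoferrin ratio Slc25a28 to Slc25a37 was 0.935, 1.30 and 0.797 in the WT mice against 0.830, 0.751 and 0.852 in the 113Q mice, and its groups overlapped (exact permutation p = 0.3). The glutathione carrier ratio Slc25a39 to Slc25a40 overlapped as well (exact permutation p = 0.7).

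**Figure D3:**
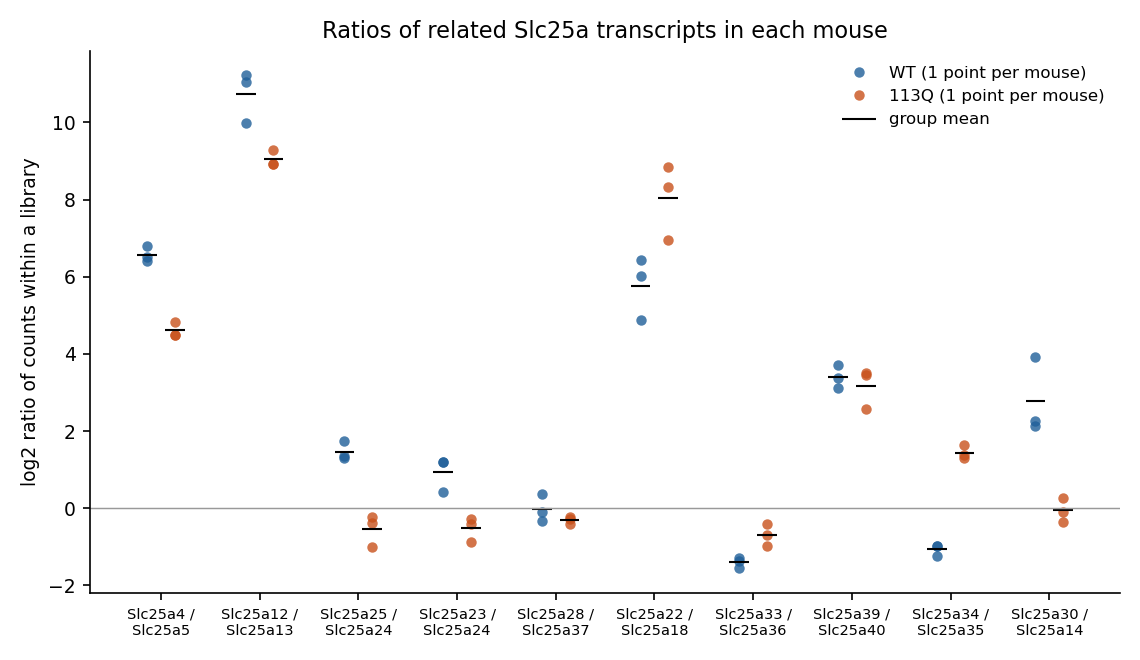
Log2 ratio of counts of related Slc25a transcripts within each library, with 1 point per mouse (blue WT, orange 113Q) and black bars for group means. Points of the 2 groups stand apart for 8 of the 10 pairs, and the points of Slc25a28/Slc25a37 and Slc25a39/Slc25a40 overlap.

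Other mitochondrial transport genes were read from the same fit. Proteins of the same fold under other symbols gave 1 rise and 1 fall among 4 tested, beside 16.5% and 18.1% of all genes. With library totals alone they gave 3 rises and 0 falls, Mtch2 turning to 0.44 (edgeR, log2 scale). Ucp2, an uncoupling protein relative of immune and other cells, was at 10.1, 15.7 and 12.8 CPM in the WT mice against 28.7, 36.0 and 46.1 CPM in the 113Q mice. It was 2.86 times higher without overlap (log2 fold change 1.52 ± 0.22, edgeR adjusted p = 0.00185). Ucp3, the muscle form, was at 53.2, 29.6 and 88.4 CPM in the WT mice against 80.6, 47.7 and 71.9 CPM in the 113Q mice. It varied widely within both groups and did not pass (log2 fold change 0.23 ± 0.45, edgeR adjusted p = 0.739). Ucp1, the brown fat form, was at 0 counts in all 6 libraries. Mtch2, an outer membrane insertase, fell (log2 fold change -0.28 ± 0.09, edgeR adjusted p = 0.0449), but the call was lost without WT mouse 1 (adjusted p = 0.115), WT mouse 3 (0.116) or any 113Q mouse (0.05005, 0.155 and 0.149). Its relative Mtch1 did not pass (log2 fold change 0.14).

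Of 10 other inner membrane metabolite transporters, 4 fell and 1 rose (median log2 fold change -0.17, against 0.01 for all genes), beside 18.1% and 16.5% of all genes. With library totals alone 2 fell and 7 rose. Brp44l and Brp44, the older symbols of the mitochondrial pyruvate carrier subunits Mpc1 and Mpc2, fell together, 2.00 and 2.16 times (edgeR adjusted p = 2.20e-04 and 1.08e-04). The 2 that remained called as lower with library totals were these subunits (log2 fold change -0.28 and -0.39). Sfxn3, of the sideroflexin family, rose 1.78 times. One further rise, Sfxn1, a serine carrier chosen after its values were seen, was called without WT mouse 3 (log2 fold change 1.08, adjusted p = 0.0129).

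The outer membrane channel and the import machinery for carriers had 9 falls and 0 rises among 18 tested genes in edgeR (rises: 0 before adjustment at 0.05, 0 by limma voom, 0 by DESeq2), where 18.1% of all genes fell (median -0.29). The channel genes Vdac1, Vdac2 and Vdac3, through which metabolites cross the outer membrane, fell with log2 fold changes of -1.01, -0.73 and -0.86 (adjusted p = 1.03e-04, 4.52e-04 and 1.97e-04). Vdac1 was at 1606, 1442 and 1507 CPM in the WT mice against 714, 768 and 776 CPM in the 113Q mice. With library totals alone the list turned to 10 rises and 1 fall: Vdac1 remained called as lower (-0.29), while Vdac2 and Vdac3 did not pass (-0.01 and -0.14). Tomm20, an import receptor, had a log2 fold change of -0.58.

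Of 10 genes of the calcium uniporter and ion exchange, 3 rose and 2 fell (median 0.21), beside 16.5% and 18.1% of all genes. With library totals alone all 10 were called as higher, the 2 fallers Ccdc90a (0.28) and Letm1 (0.48) included. Efha1 and Efha2, older symbols of the uniporter regulators Micu2 and Micu3, rose 1.27 and 1.44 times. Slc24a6, the older symbol of the sodium/calcium exchanger Slc8b1, rose 1.53 times. Ccdc90a, the older symbol of the uniporter regulator Mcur1, had a log2 fold change of -0.44. The second fall, Letm1, an ion exchanger of the inner membrane chosen after its values were seen, had an adjusted p of 0.0483 and was lost without any 1 of the WT mice (0.106, 0.0669 and 0.0896) or 113Q mice (0.133, 0.105 and 0.0871).

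Enzymes that work on the carriers' substrates had 9 falls and 0 rises among 14 genes in edgeR (rises: 0 before adjustment at 0.05, 0 by limma voom, 0 by DESeq2; median -0.41), where 18.1% of all genes fell and 16.5% rose. With library totals alone the direction turned, to 8 rises and 3 falls. Gpd1, the cytosolic enzyme of the glycerol phosphate shuttle, was at 1055, 1173 and 1048 CPM in the WT mice against 102, 198 and 155 CPM in the 113Q mice. It was 7.20 times lower (log2 fold change -2.85 ± 0.24, edgeR adjusted p = 2.59e-04). Crat, carnitine acetyltransferase, and Ckmt2, the mitochondrial creatine kinase of striated muscle, were 2.16 and 2.12 times lower. Atp5a1, the ATP synthase alpha subunit, had a log2 fold change of -0.66. Gpd1, Crat and Ckmt2 remained called as lower with library totals alone (-2.13, -0.39 and -0.37), and Atp5a1 did not (0.06).

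**Figure D4:**
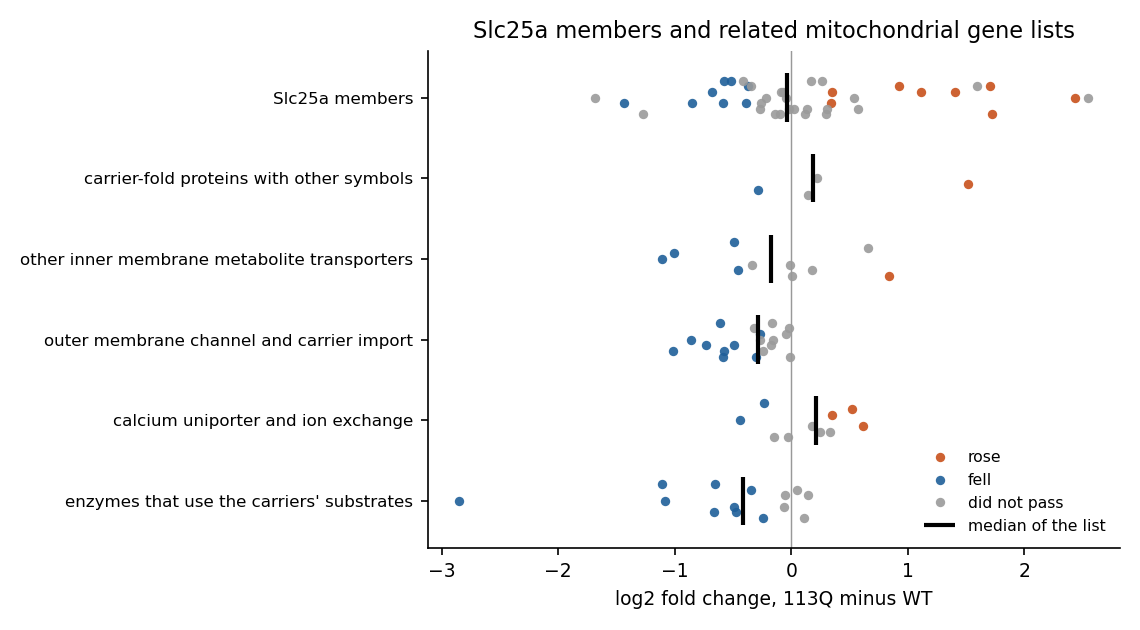
Log2 fold change (113Q minus WT) of each tested gene in the Slc25a family and in 5 lists of related mitochondrial genes; colours give the call and black bars the median of the list. The family spreads to both sides of 0, while the lists of the outer membrane and import and of enzymes hold falls but no rises with TMM factors (10 and 8 rises with library totals alone).

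Markers of other cell types moved with the genotype in part. The 4 smooth muscle markers summed to 122 to 551 CPM in WT and 1012 to 2371 CPM in 113Q, with no overlap, and 1 of the 4, Acta2, passed in edgeR while all 4 passed in DESeq2 and limma voom. The 4 endothelial markers all fell with TMM factors, with a sum of 261 to 347 CPM in WT and 181 to 187 CPM in 113Q. Their log2 fold changes, -0.85 to -0.31, are of the size of the 0.72 by which library totals moved the median gene, so these falls depend on the scaling. Epithelial markers ranged from 1.30 to 40.4 CPM in WT and 0.848 to 75.5 CPM in 113Q and 0 of 5 tested passed in edgeR, before or after adjustment, in DESeq2 or in limma voom. Adipocyte markers summed to 195 to 449 CPM in WT and 159.9 to 266 CPM in 113Q, and 1 of 6, Fabp4, fell with TMM factors (log2 fold change -0.68). Fibroblast markers summed to 380.4 to 705 CPM in WT and 615 to 763 CPM in 113Q and macrophage markers to 21.9 to 32.0 CPM in WT and 24.6 to 31.4 CPM in 113Q, and no gene of either list passed in edgeR. Before adjustment, 2 fibroblast markers were higher at 0.05 and 0 macrophage markers differed; DESeq2 called 2 and 0, and limma voom 0 and 0. Of 4 Schwann cell markers, summing to 83.0 to 114 CPM in WT and 69.4 to 102 CPM in 113Q, 1 rose. Slc25a5, Slc25a24 and Ucp2 are transcribed in many cell types besides the myofibre, and the part of other cells in their rise was not tested. Leaving out any 1 mouse, or adding a term for libraries with epithelial transcripts, changed the call of none of Slc25a5, Slc25a24, Slc25a14, Slc25a34, Slc25a22 or Slc25a20.

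Members lie on 19 mouse chromosomes in GENCODE M21 (GRCm38, the assembly behind mm10). Slc25a4 is at chr8:46206797-46211284 and Slc25a5 at chrX:36795651-36798807, so the ADP/ATP translocases are on separate chromosomes. Slc25a5, Slc25a14 and Slc25a43 are X-linked, at chrX:48623413-48662294 and chrX:36743659-36777202 for the latter 2. Slc25a34 is at chr4:141618824-141623821, Slc25a24 at chr3:109123149-109168457 and Slc25a47 at chr12:108836046-108856815. Exons of 12 members share bases with another gene on the opposite strand, which counts without strand information cannot separate. The overlap was largest for Slc25a35, with 31.3% of its exon bases shared with Rangrf, and was 9.7% for Slc25a11 with Rnf167. None of Slc25a3, Slc25a4, Slc25a5, Slc25a14, Slc25a24, Slc25a34 or Slc25a47 had such an overlap. Slc25a5 has 1 named pseudogene in the annotation, Slc25a5-ps, whose reads the authors' counting could have shared with it. Of 264 member values, 3 differed from a whole number by more than 0.001, all in Slc25a36.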

How the data were processed

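Libraries were TruSeq mRNA preparations of Trizol RNA, per the labels' protocols. The authors deposited 1 table of estimated counts per gene, 1 column per mouse, made with Cuffdiff 2.1.1 on mm10; Bowtie2 2.1.0, TopHat2 2.0.9, Cufflinks, cutadapt and FastQC 0.10.0 are also named, per the submitters' processing notes. The annotation and whether strand was used were not given in the sources used here. In a library, 5.38% to 5.96% of these expected counts were fractional, and all were rounded.

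All rows of the table were fitted with edgeR 4.0.16 in R 4.3.3: filterByExpr with a minimum count of 10, TMM factors, a two-sided quasi-likelihood test with robust dispersion, Benjamini-Hochberg adjustment over all genes and a threshold of 0.05. Each standard error was taken as the fold change on the log2 scale over the root of F. Exon lengths are the union of protein-coding exons. Ratios used counts plus 0.5 and an exact permutation test. A group has 3 mice, which the labels name separately with no litter or batch. The floor of 3 counts equals 0.0322 to 0.0888 CPM per library and covers counting error only. In simulated data with 200 of the genes changed, edgeR, run on 16610 genes, found 47.8% of the 2-fold and 81.8% of the 4-fold changes. Of its 107 calls, 10 (9.35%) were false. In the same data, DESeq2, run on 16960 genes, found 65.7% and 87.9%, and 57 of its 181 calls (31.5%) were false. Limma voom, run on 16610 genes, found 41.8% and 78.8%, and 11 of its 97 calls (11.3%) were false.

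Alternatives were DESeq2 1.42.0, limma 3.58.1 (voom), other factors and filters, leaving out each mouse, a replicate block and an epithelial term (Epcam of at least 1 CPM). The members, lists and tests were chosen with earlier results of these data known. Values in every library were given for members changed at least 2 times and passing, for ADP/ATP and phosphate carriers and for pairs whose ratios did not overlap; those of other members were added where a call was described. From each list of related genes, up to 4 with the smallest p and the Ucp genes were named. Some genes are counted but not reported here. Protein and reads were not analysed here.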

Additional observations from a re-analysis of the deposited data

How the results depend on the processing

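All 16 called members kept their call with DESeq2, voom, RLE factors and no filter. With upper-quartile factors, the filter of 1 CPM or the epithelial term, 15 did. Leaving out 1 mouse kept 13 to 15. Of the 24 members that did not pass, 14 passed in some alternative with the sign of the main fit, 7 of them only with library totals. Slc25a12, Slc25a16, Slc25a25, Slc25a27, Slc25a35, Slc25a42 and Slc25a46 passed with library totals only, with the sign turned to positive. Over all members, DESeq2 called 10 higher and 10 lower, and upper-quartile factors 11 and 7. Of the 8 risers, 6 kept the call in every alternative run, and of the 8 fallers, 1 did and 6 lost it only with library totals. Library totals move values up, so they could not turn a rise, and the 2 counts are not compared.

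Library totals alone gave 11015 genes higher and 710 lower, with 28 and 1 members, a member median of 0.69, and, for the lists in the order of the text, 3 and 0, 7 and 2, 10 and 1, 10 and 0, and 8 and 3. With this scaling the log2 fold change turned positive for Slc25a3 (0.20), Slc25a11 (0.13), Slc25a12 (0.50), Slc25a15 (0.15), Slc25a16 (0.62), Slc25a25 (0.45), Slc25a26 (0.46), Slc25a27 (0.67), Slc25a28 (0.038), Slc25a29 (0.37), Slc25a35 (0.65), Slc25a36 (0.36), Slc25a37 (0.30), Slc25a42 (0.63), Slc25a45 (0.58) and Slc25a46 (0.70). The cause was the construction of the scaling, which leaves out factors that differ between the genotypes.

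The member median, -0.03, was 0.0079 with upper-quartile factors and 0.0084 with the epithelial term, and ranged from -0.045 to 0.0067 without 1 mouse. For proteins of the same fold the count of falls was 0 with upper-quartile factors, no filter, the epithelial term and the replicate block, and 0 to 1 without 1 mouse. For other transporters the count of rises was 2 with the block and 1 to 2 without 1 mouse. For calcium genes the count of falls was 1 with upper-quartile factors, voom, no filter and the block, and 1 to 1 without 1 mouse, and the count of rises was 5 with the epithelial term. The cause was not tested. The Slc25a39/Slc25a40 difference ranged from -0.39 to 0.072, above zero without 113Q mouse 1.

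Mice of the same number did not deviate together in all pairs (correlations 0.198, 0.236 and -0.274), and 113Q mouse 2 correlated best with the WT mouse of its number while 113Q mice 1 and 3 did not, so the replicate block only shares a number. With it, 14 of 16 members kept their call. Depth limits Slc25a2, Slc25a13, Slc25a18, Slc25a21, Slc25a31, Slc25a41 and Slc25a43.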
